A study of Mus musculus with 468 samples.

Results

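Among adipose libraries from Diversity Outbred mice, a minority carried transcripts known from the male reproductive tract. The 10 libraries described here were chosen by the level of Spink8, a Kazal-type serine protease inhibitor made in the epididymis. Libraries with at least 1 count of Ddx3y, a helicase gene of the Y chromosome, made up 51.5% of the series, and of these 120 lay below their median Spink8 of 0.103 CPM, 1 at it and 120 above it. CPM is the count of a gene over the total of its library, times 1000000. The 10 libraries of highest Spink8, which are 4.15% of those with Ddx3y counts and 2.14% of the whole series, were compared with the 120 below the median. The libraries between, the median one and the other 110 above it, and the 48.5% of libraries without Ddx3y counts served as further reference.

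Every mouse came from the outbred J:DO stock, which descends from several inbred founder strains, and every mouse ate a high-fat, high-sugar diet labelled as 45 percent fat. The study sampled the gonadal fat pad, and each mouse gave 1 library. The labels give neither sex, age, generation nor batch, so the groups compared differ by rule only in Spink8, and all their libraries carry Ddx3y. The p-values measure the spread between single mice, which holds both animal and technical differences.

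In the mouse, the gonadal fat pad of a male is attached to the epididymis, the long coiled duct in which sperm mature. The epithelium of this duct changes along its length, and successive segments (initial segment, caput, corpus and cauda) secrete their own protease inhibitors, defensins, lipocalins and sperm-coating proteins into the lumen. The duct continues as the vas deferens, a tube with a thick coat of smooth muscle. Akr1b7, an aldo-keto reductase, is also known as mouse vas deferens protein, while Rnase10, a secreted protein of the RNase A family that lacks the enzyme activity, and Teddm1a, a transmembrane epididymal protein, are known from the proximal epididymis.

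The description of these libraries as holding epididymis transcripts was checked against 3 markers: Spink8, Rnase10 and Teddm1a. Only library DO379 of the 10 carried all of them. In the other 9, Rnase10 lay between 0 and 0.453 CPM, below the 0.723 CPM reached in the low group, and Teddm1a was at most 0.13 CPM. The libraries are therefore called here by their rule, the libraries of highest Spink8, and genes that followed Spink8, with Akr1b7 in front, are kept apart from genes that followed Adam28, a membrane-bound metalloproteinase of the epididymis, with Rnase10 and Teddm1a.

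Promoter sequence was read for 4 of 6 genes of these sets from RefSeq (GRCm38.p6), and that of the leading gene of each set is shown because their transcripts were found in different libraries. Androgen receptors bind pairs of the half-site AGAACA, whose other strand reads TGTTCT, and capitals mark either form on a lower-case background. The Akr1b7 sequence is chr6:34412112-34412333 on the plus strand, which ends before the annotated gene, and the Rnase10 sequence is chr14:51007501-51007750 on the plus strand, 250 bases before its start.
Akr1b7: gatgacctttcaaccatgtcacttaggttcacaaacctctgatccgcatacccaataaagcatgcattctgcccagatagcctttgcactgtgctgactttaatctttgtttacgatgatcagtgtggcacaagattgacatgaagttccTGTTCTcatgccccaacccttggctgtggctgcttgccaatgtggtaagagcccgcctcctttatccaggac
Rnase10: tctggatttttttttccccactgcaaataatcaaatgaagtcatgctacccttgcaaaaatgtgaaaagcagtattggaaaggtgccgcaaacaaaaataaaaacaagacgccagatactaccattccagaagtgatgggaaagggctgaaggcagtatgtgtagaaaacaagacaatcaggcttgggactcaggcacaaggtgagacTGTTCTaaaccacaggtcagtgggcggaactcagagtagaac
Each shown stretch held a single half-site. The same 6 letters, on either strand, were in 16.1% of 32851 RefSeq windows of 250 bases before a start site, so a match is common and is given as a description only. Neither form was in the 250 bases read for Ptgs2 or for Teddm1a.

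Spink8 (ENSMUSG00000050074, chromosome 9, 109812280 to 109826633, GRCm38) set the groups, and its levels are given as a description. In the 10 libraries it was 234.95 CPM in DO181, 232.1 in DO080, 201.2 in DO548, 199.1 in DO555, 181.1 in DO109, 166.2 in DO401, 154.1 in DO312, 151.8 in DO379, 147.8 in DO074 and 145.1 in DO416. The next library, DO513, had 144.7 CPM, so the cut at 10 fell inside a continuous run of levels. Of the libraries with Ddx3y counts, 50 exceeded 30 CPM, 22 lay between 1 and 30 CPM and the others, 70.1%, had at most 1 CPM. Libraries without Ddx3y counts reached 0.531 CPM, and 59% of them had no Spink8 count.

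**Figure D1:**
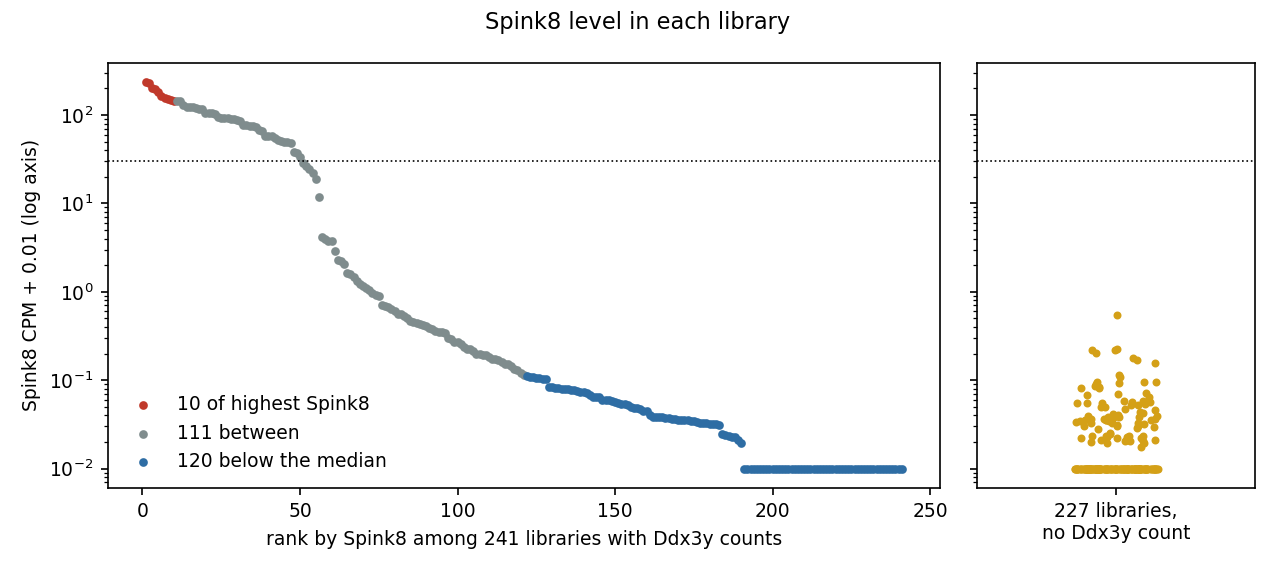
Spink8 level (CPM + 0.01, log axis) of each library against its rank among the libraries with Ddx3y counts (left), and of the libraries without Ddx3y counts (right, spread sideways at random). Red points are the 10 libraries of highest Spink8, grey those between, blue the 120 below the median, and the dotted line marks 30 CPM, which 50 libraries exceeded.

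Depth overlapped between the groups. Total counts were 51.1 to 114.05 M in the 10 libraries (median 83.9 M) and 36.3 to 137.8 M in the low group (median 82.3 M), a difference in means of -0.882 M (adjusted p = 0.882, two-sided permutation test with 100000 resamples). The 10 libraries were also spread over the series. Their mean mouse number differed from that of the low group by 14 and their mean library number by -24.8, each with an adjusted p of 0.882 in the same test. Across 5 blocks of consecutive mouse numbers they fell 3, 1, 1, 3 and 2. At the depth of the shallowest library of the low group, 3 counts correspond to 0.0826 CPM, a limit that covers counting error only.

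Over all other genes, the comparison asked which transcripts were present together with Spink8. By edgeR's quasi-likelihood test, 2862 of 21888 genes (13.1%) were higher and 2121 (9.69%) were lower in the 10 libraries at an adjusted p under 0.05. The higher calls were the larger ones: 1503 exceeded 1 on the log2 scale, against 46 of the lower calls. For 0.557% of genes the lowest of the 10 libraries lay above the highest of the 120, and for 0 genes the reverse held. Without DO379, 2344 genes (10.7%) were higher and 1568 (7.17%) lower, and the genes with separate groups were 1.18%. Since Spink8 chose the groups, a p here says that a gene varied with Spink8 across libraries and nothing about why. In whole tissue, more cells of a type and more RNA per cell cannot be told apart.

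Akr1b7 (ENSMUSG00000052131, chromosome 6, 34412334 to 34423142) was by fold the gene most strongly raised with Spink8. Its level was 10593 CPM in DO181, 6721 in DO080, 4403 in DO548, 2882 in DO555, 6165 in DO109, 6380 in DO401, 2969 in DO312, 4098 in DO074 and 7425 in DO416, but 2.92 in DO379. The low group had a median of 0.235 and a highest level of 10.3 CPM, and the libraries without Ddx3y reached 12.1 CPM. Thus 9 libraries stood above every library of the low group and every one without Ddx3y, and DO379 stood within the range of the low group. Libraries between the groups were not clear of the 9, since DO513 had 5430, DO511 4702 and DO304 4115 CPM. The fitted log2 fold change was 12.97 ± 0.40 (SE, n = 10 and 120, adjusted p = 2.29e-61), and 13.12 without DO379. Upk1a, a uroplakin and the other tested member of the 3-gene vas deferens list, differed less, with a log2 fold change of 1.64 ± 0.33 (adjusted p = 2.43e-05) and all 10 libraries above the low group's median.

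Ptgs2, the inducible cyclooxygenase that starts prostaglandin synthesis, showed the same split. It was 1646 CPM in DO181, 1927 in DO080, 573.3 in DO548, 414.98 in DO555, 981.3 in DO109, 775.7 in DO401, 598.9 in DO312, 581.1 in DO074 and 1184 in DO416, while DO379 had 3.33 CPM. No library of the low group exceeded 8.5 CPM and none without Ddx3y exceeded 7.77 CPM. Its log2 fold change of 8.59 ± 0.18 had an adjusted p of 3.15e-80.

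Other genes of prostaglandin metabolism, chosen after their values were seen, moved with Ptgs2 in part. With Ptgs2 itself counted, 7 of 18 such genes were higher and 3 lower, against 13.1% and 9.69% of all genes. Slco2a1, a prostaglandin transporter, rose by 3.66 on the log2 scale, with 284.1 to 1030 CPM in the 9 libraries, 57.7 in DO379 and at most 108.8 in the low group. Ptgr1, a reductase that inactivates eicosanoids, rose by 2.5, and Ptges, the inducible prostaglandin E synthase, by 2.13. Smaller rises were seen for Ptgs1, the constitutive cyclooxygenase (1.70), Pla2g4a, the phospholipase that frees arachidonic acid (1.45), and Hpgd, which degrades prostaglandins (1.24). The receptors Ptger2 and Ptger3 fell by 0.41 and 0.51, and the synthase Ptges2 fell by 0.30, while Ptger3 no longer passed without DO379 (adjusted p = 0.0736).

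Apart from Adam28, Rnase10, Teddm1a, Teddm1b and Spink5, which are taken up below with DO379, the 20 genes of largest fold change included genes of several kinds. Pcp4, a calmodulin regulator, had a log2 fold change of 10.11 ± 0.35 and was at 45.1 to 145.1 CPM in the 9 libraries but 0.317 in DO379. Smpx, a small muscle protein (8.77), Rims1, a protein of vesicle release (8.67), Anxa13, an annexin of epithelia (8.37), Kcnc1, a voltage-gated potassium channel (8.20), and Dpp6, an accessory subunit of such channels (8.0), were likewise higher in 9 of the 10 libraries than in any of the 120. The transcriptional coactivator Cited1 (8.17), the lysophospholipid carrier Mfsd2a (8.08), the nucleoside carrier Slc28a3 (8.06) and the acyl-CoA-binding gene Acbd7 (8.04) were above the low group in all 10. For these genes DO379 shared the pattern, which it did not for Akr1b7.

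Slc28a3 shows this most plainly. It was 56.3 CPM in DO181, 118.7 in DO080, 66.6 in DO548, 41.7 in DO555, 58.6 in DO109, 40 in DO401, 66.7 in DO312, 45.1 in DO379, 93.9 in DO074 and 81 in DO416. The low group did not exceed 0.994 CPM, so the groups did not overlap and DO379 was an ordinary member.

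Aqp2, the water channel regulated by vasopressin in the kidney, varied widely among the 9. Its level was 1018 CPM in DO181, 141.3 in DO109, 77.2 in DO401, 57 in DO074 and 15.4 to 27.8 in the other 5, a 66.2-fold range where Spink8 itself ranged 1.62-fold and Akr1b7 3.68-fold. DO379 had 0.438 CPM and the low group at most 1.64 CPM. The log2 fold change was 9.01 ± 0.32.

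Transcription factors of urogenital development were among the genes that rose, and those other than Gata3 and Tfap2a were chosen after their values were seen. Gata3, a zinc-finger factor needed for the developing nephric duct, was 138.2 CPM in DO181, 98.4 in DO080, 89.7 in DO401, 91.6 in DO416 and 35.9 to 78 in the other libraries but DO379, which had 21.8, against at most 3.72 in the low group (log2 fold change 5.69 ± 0.14, adjusted p = 5.63e-72). Tfap2a and Tfap2b, related AP-2 factors, rose by 6.23 and 7.86, and in DO379 Tfap2b was at its highest, 19.4 CPM. Irx1, an Iroquois homeobox gene (6.71), Emx2, a homeobox gene of urogenital development (3.42), and the posterior Hox genes Hoxa10 (4.26), Hoxa11 (6.82) and Hoxd11 (7.23) were higher as well. Hoxa10 is no marker of these libraries alone, since the libraries without Ddx3y had a median of 11.3 CPM, and against them its difference turned to -0.39. Hoxa11 had a median of 3.58 CPM there, above its lowest level in the 9 libraries, 3.04. Over the Hox clusters, 20 of 33 genes were higher and 6 lower, beside 13.1% and 9.69% of all genes.

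Across all libraries with Ddx3y counts, the 10 genes whose log2 level was most like that of Spink8 were Slc28a3 (Pearson r = 0.953), Mfsd2a, Clca3a2, Tfap2a, Ptgs2, Anxa13, Cited1, Pcp4, Gata3 and Ryr3 (r = 0.943). Clca3a2 is a gene of the chloride channel accessory family and Ryr3 is a calcium release channel of the endoplasmic reticulum. These values are a description over libraries that share depth and tissue mixture. With the 10 libraries of highest Spink8 left out, 8 of the 10 genes were kept, and by rank correlation 5 were kept. Among these 10 genes the largest r with Rnase10 was 0.129, for Tfap2a.

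**Figure D2:**
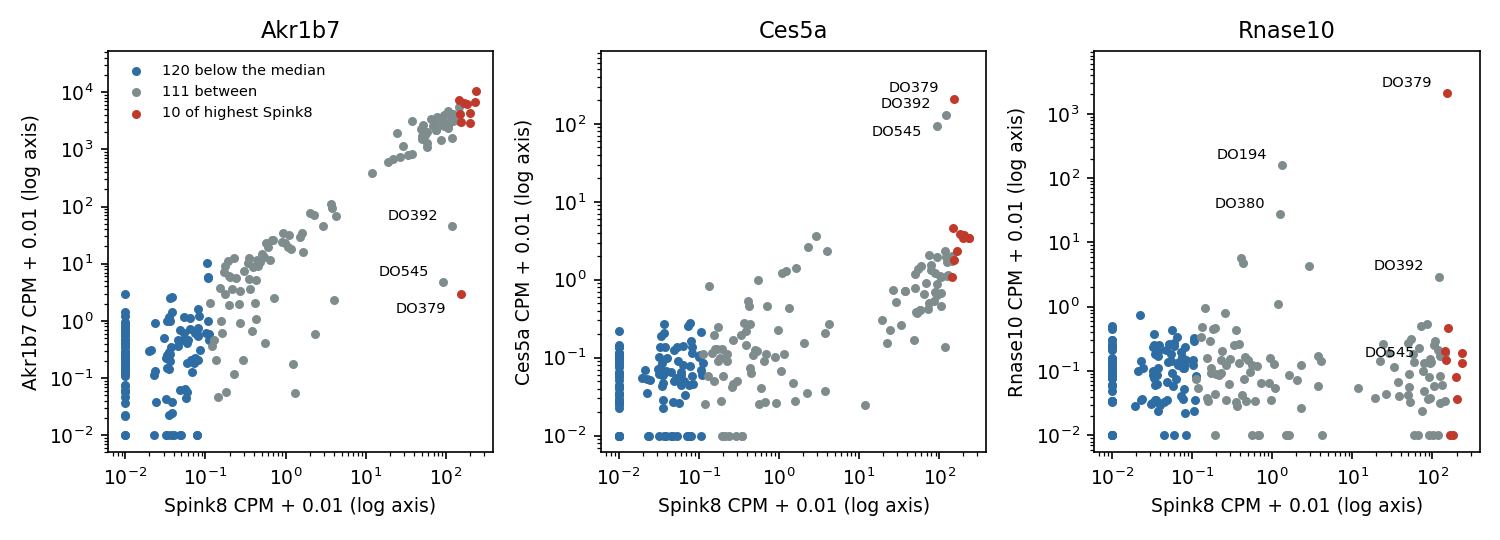
Levels of Akr1b7, Ces5a and Rnase10 against Spink8 in the libraries with Ddx3y counts (CPM + 0.01, both axes log), with points coloured by group as in the plot of ranks. Of the 50 libraries over 30 CPM of Spink8, 47 have at least 782.2 CPM of Akr1b7 and the others, DO379, DO392 and DO545, at most 44.9; these stand apart in Ces5a (95.2 to 210.9 CPM against at most 4.58 elsewhere), and Rnase10 is high in DO379, DO194 and DO380.

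Smooth muscle genes rose as a list. All 9 tested members were higher, beside 13.1% of all genes, with a median log2 fold change of 3.02 beside -0.01 over all genes, and the same 9 passed without DO379. Myh11, the myosin heavy chain of smooth muscle, was 4515 CPM in DO181, 995.3 in DO080, 2814 in DO548, 2237 in DO555, 3564 in DO109, 2961 in DO401, 1756 in DO312, 3190 in DO074 and 3919 in DO416, with 242.3 in DO379 and at most 320.3 in the low group (log2 fold change 4.25 ± 0.14, adjusted p = 5.28e-57). Thus 9 libraries were clear of the low group and DO379 was not. Actg2, the enteric smooth muscle actin, differed in this respect, since DO379 at 258.2 CPM lay with the others (199.9 to 886.2) above the low group's 24.7 (log2 fold change 5.93 ± 0.26). Cnn1, a calponin (5.33), Des, the intermediate filament desmin (3.61), Mylk, the myosin light chain kinase (3.02), Lmod1 (2.77), Tagln (2.48), Acta2 (2.36) and Synpo2 (0.80), all proteins of the contractile apparatus, completed the list. Of the libraries without Ddx3y, 45 also exceeded the low group's highest Actg2, with up to 1926 CPM, and Myh11 reached 3658 CPM there, so high levels of these genes were not limited to libraries with Ddx3y counts.

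Skeletal muscle markers moved in both directions. Of 8 tested, 4 were higher, beside 13.1% of all genes, and 1 was lower, beside 9.69%. This was Myh4, a fast myosin, lower by 5.66 ± 2.11 on the log2 scale (adjusted p = 0.0391, and 0.0671 without DO379). Ckm, the muscle creatine kinase, was the exception in size: it was 14.3 to 56.8 CPM in the 9 libraries and 0.351 in DO379, with 7 of 10 above the low group's highest, 27 CPM (log2 fold change 6.45 ± 0.55). Acta1, skeletal actin, rose by 1.57. Among muscle genes picked after their values were seen, Mybpc1, a myosin-binding protein, rose by 6.18, Tnnc2, a fast troponin C, by 6.33, and Casq1, a calcium store protein, by 2.08. The same pick held 2 genes tied to smooth muscle, Myocd, the coactivator of smooth muscle genes (3.43), and P2rx1, its ATP-gated channel (4.60). Libraries without Ddx3y reached higher levels of some of these genes than the 10. They had up to 668.1 CPM of Ckm, 203.05 of Tnnc2, 163.4 of Mybpc1 and 102.9 of Casq1, but at most 15.2 of P2rx1. The share of skeletal muscle in the values of the 10 libraries was not tested.

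Epithelial genes rose, in DO379 as in the other libraries. Of 18 listed, 16 were higher, beside 13.1% of all genes (15 without DO379, beside 10.7%), with a median log2 fold change of 3.10. Cldn4, a tight junction protein (6.85), Grhl2, a transcription factor of epithelia (5.93), Pax2, a factor of the urogenital ducts (4.89), Cldn3 (3.64) and the keratin Krt19 (2.80) were above the low group in every one of the 10. Epcam, the epithelial adhesion molecule, was 117.8 CPM in DO379 and 20.1 to 65.9 in the others, and 4 of 10 exceeded the low group's highest, 37.8 (log2 fold change 3.06 ± 0.55, adjusted p = 2.87e-06). Cdh1, E-cadherin, rose by 3.59 and Pax8, a paired-box factor related to Pax2, by 3.41, with some overlap of the groups. The keratin Krt7 (0.39, adjusted p = 0.187) and the factor Elf3 (1.52, adjusted p = 0.221) did not pass. Trp63, a factor of basal cells, rose by 3.29, with all 10 libraries above the low group. The other tested basal cell gene, the keratin Krt14, did not pass (0.60, adjusted p = 0.449 in edgeR). Thus 1 of 2 was higher, beside 13.1% of all genes. Of 5 tested genes of clear cells, the epididymal cells that acidify the lumen, 0 passed, 0 had an unadjusted p under 0.05 and 0 passed in DESeq2, while in ranks 11 to 20 1 of the 5 was higher, beside 10.2% of all genes.

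Secreted and membrane proteins known from the epididymis separated into those shared by the 10 libraries and those of DO379. Cd52, a peptide that coats sperm and is also carried by lymphocytes, was 291.03 CPM in DO181, 278.4 in DO080, 244.5 in DO109, 238.01 in DO548 and 110.4 to 222.01 in the other libraries but DO379, which had 20.2, against at most 41.6 in the low group (log2 fold change 4.07 ± 0.23). Wfdc15b, a protease inhibitor of the WAP type, was above the low group's 1.66 CPM in all 10, at 7.57 to 40.3 CPM (6.64 ± 0.51). Aqp9, a water and glycerol channel of epididymal principal cells, was also higher in all 10, at 19.2 to 60 CPM against at most 12.1 (2.73 ± 0.22). It was not typical of its list. Of 10 tested transporters and receptors of principal cells, 2 were higher, beside 13.1% of all genes, and 8 did not pass. The median log2 fold change of that list was 0.14, and without DO379 it was -0.19 with 1 gene higher, beside 10.7% of all genes. Defb42, a beta-defensin, was uneven: 362.7 CPM in DO379, 39.7 in DO080, 34 in DO416, 29.1 in DO109, 27.1 in DO555, and 0.191 to 11.1 in the other 5 (8.28 ± 0.33, and 6.74 without DO379). Defb42 overlaps Defb30 on the genome, so its counts are uncertain.

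By lists, 6 of 6 tested sperm-coating and membrane genes, 4 of 6 protease inhibitors, 2 of 2 lipocalins and 1 of 2 ADAM and CRISP genes were higher in the 10 libraries, beside 13.1% of all genes. Without DO379 these counts fell to 2, 1, 0 and 0, beside 10.7%, and with all 10 libraries DESeq2, which replaces counts that stand far from the rest, gave 2, 1, 1 and 0. Many members of such families are absent from the table, with 7 of 23 protease inhibitors and 2 of 35 beta-defensins present, because genes without counts in most libraries had been removed. The lists therefore describe only the members that remained.

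**Figure D3:**
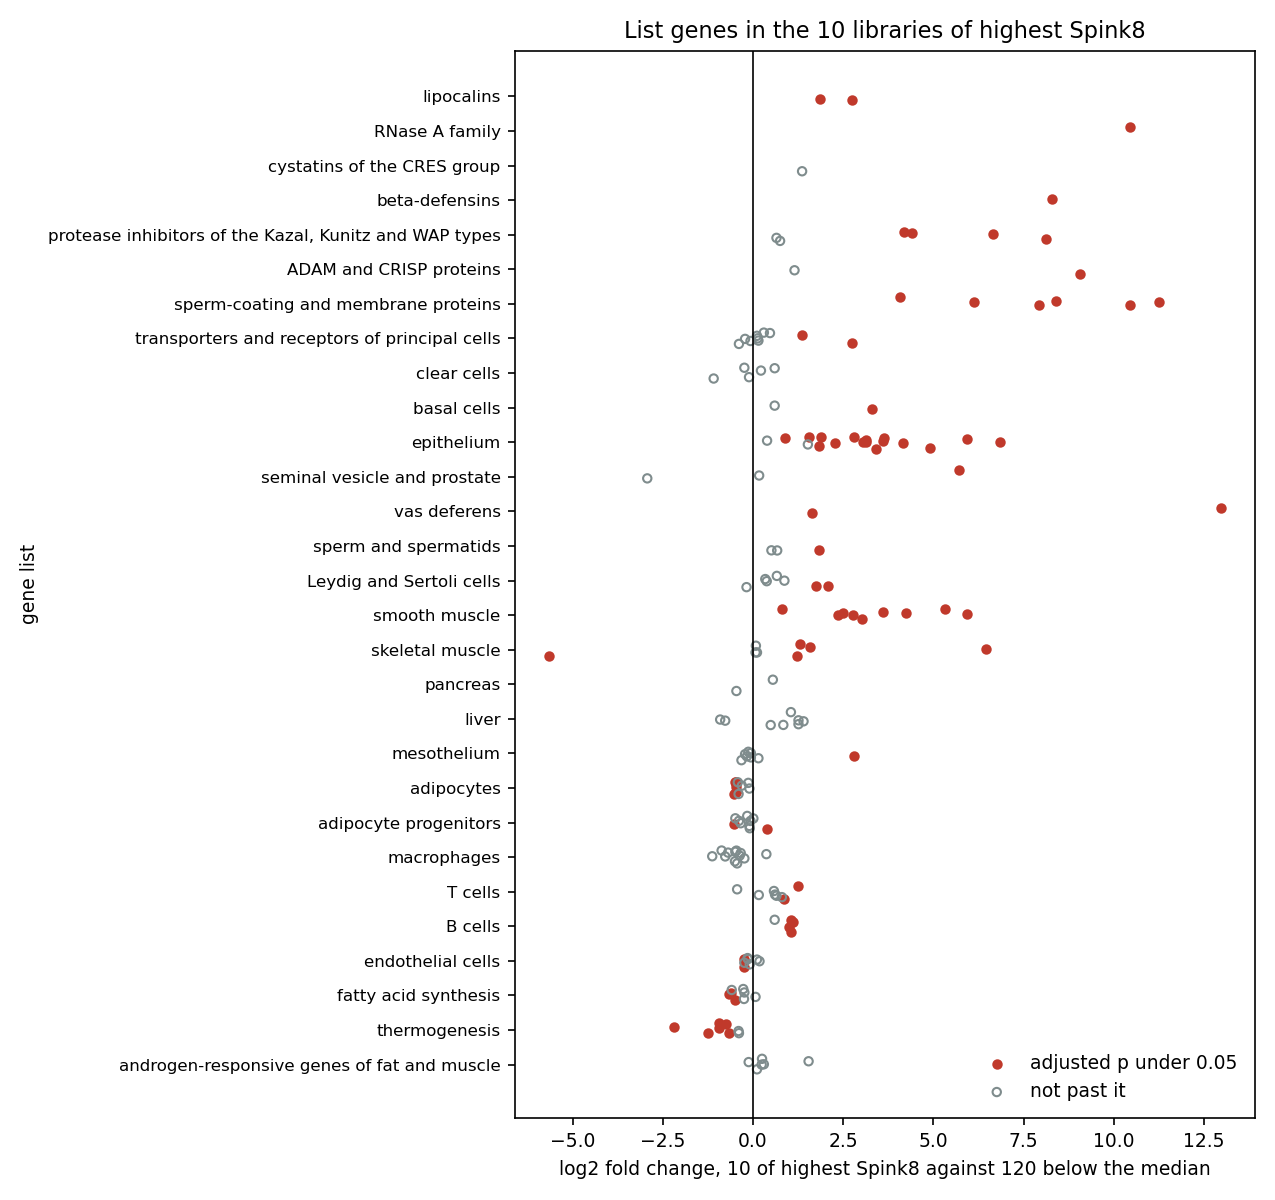
Log2 fold change of each list gene between the 10 libraries of highest Spink8 and the 120 below the median (x axis), by gene list (y axis, points spread at random within a row). Filled red points had an adjusted p under 0.05; all 9 smooth muscle genes and 16 of 18 epithelial genes passed on the right of 0, and 7 of 12 adipocyte genes passed on the left.

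DO379 decided the calls of the Rnase10 set. Rnase10 (ENSMUSG00000021872, chromosome 14, 51007751 to 51010758) was 2072 CPM in DO379, Adam28 (ENSMUSG00000014725, chromosome 14, 68606027 to 68655842) 1309 CPM and Teddm1a (ENSMUSG00000047053, chromosome 1, 153891742 to 153893058) 1243 CPM. In the full comparison their log2 fold changes were 10.45 ± 0.39, 9.05 ± 0.36 and 11.24 ± 0.44, and without DO379 they were 0.01 (adjusted p = 0.991), 0.54 (0.392) and -0.86 (0.488). Spink5, another Kazal-type inhibitor, and Teddm1b, a neighbour of Teddm1a, went from 8.13 and 7.93 to 0.01 and -0.59. Smaller epididymal calls that ended in the same way were Spink2 (4.17, then 0.60), Wfdc6a (4.40, then 0.95), the lipocalins Lcn2 (2.73, then 0.03) and Ptgds (1.85, then -0.38), and the receptor Adgrg2 (1.37, then -0.20). Each of these calls rests on 1 library. In ranks 11 to 20 of Spink8, Rnase10, Adam28 and Teddm1a passed with smaller log2 fold changes of 1.66, 1.51 and 2.63, and there DO392 held the highest level of each.

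The same 8 libraries were the highest of Rnase10, of Teddm1a and of Adam28. After DO379, Rnase10 was 157.8 CPM in DO194, 27.4 in DO380, 5.76 in DO397, 4.74 in DO319, 4.29 in DO216, 2.92 in DO392 and 1.1 in DO172. Outside these 8, all other libraries with Ddx3y counts stayed at or below 0.938 CPM, and those without Ddx3y at or below 0.79. DO380 and DO381, the latter with 0.938 CPM, carry the mouse numbers that follow DO379, and DO195, with 0.723, carries the number that follows DO194, and the part of this order in the values was not tested. Teddm1a in the same order was 1243, 80.8, 19, 6.43, 2.37, 3.25, 2.3 and 1.45 CPM, and Adam28 was 1309, 213.01, 30.1, 5.89, 3.9, 7.14, 4.3 and 3.26. The ratios of the 3 genes varied less than their levels. There were 0.5 to 1.32 Teddm1a counts and 0.632 to 2.96 Adam28 counts per count of Rnase10.

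Spink8 did not follow this order. It was 151.8 CPM in DO379 and 120.3 in DO392, but 2.88 in DO216, 1.31 in DO194, 1.23 in DO380, 1.16 in DO172, 0.42 in DO319 and 0.402 in DO397. Of the 10 libraries of highest Spink8, only DO379 was also among the 10 of highest Rnase10 or Teddm1a, and DO379 and DO109 were among the 10 of highest Adam28, whereas 7 were among the 10 of highest Akr1b7. When CPM was scaled by the trimmed mean of M-values (TMM), DO379 and DO416 left the 10 libraries and these overlaps became 0, 0 and 1.

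**Figure D4:**
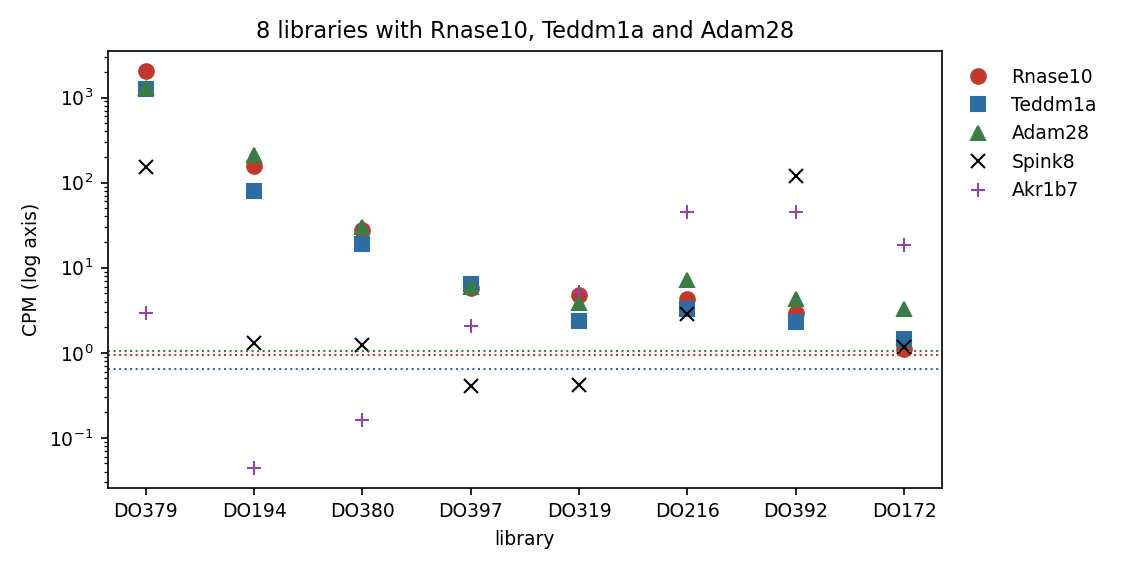
Levels (CPM, log axis) of Rnase10, Teddm1a, Adam28, Spink8 and Akr1b7 in the 8 libraries that were highest of the first 3 genes, ordered by Rnase10. Dotted lines mark the highest level of Rnase10 (red), Teddm1a (blue) and Adam28 (green) in all other libraries with Ddx3y counts; the 3 genes fall together from DO379 to DO172, and Spink8 and Akr1b7 do not follow them.

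The genes most like Adam28 over the same libraries were Teddm1a (Pearson r = 0.946), Rnase10 (0.933), Gm1110, Defb25, Ly6g5b, Teddm2, Cstdc2, Ptpn5, Tecta and Klhl34 (0.794). Defb25 is a beta-defensin, Cstdc2 carries a cystatin domain, Ly6g5b belongs to the Ly6 family, Ptpn5 is a phosphatase, Tecta is known as a tectorin of the inner ear and Klhl34 is a Kelch-like gene. DO379 had 1356 CPM of Cstdc2, 954.3 of Teddm2, 637.3 of Gm1110, 357.3 of Ly6g5b and 255.6 of Defb25, each the highest level of its gene. DO194 had 99.1 CPM of Cstdc2, 14.7 of Gm1110, 43 of Ly6g5b and 17.9 of Defb25, with 0.0443 CPM of Akr1b7. It had only 0.334 CPM of Teddm1b and 1.47 of Spink5, against 482.3 and 381.9 in DO379. Spink5 reached 1.85 CPM outside the 8 libraries with Ddx3y counts named above, so DO194 carried part of the set, at a lower level. Teddm2 overlaps Teddm1a, Teddm1b and Glul on the genome, so reads may have been divided between them.

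Another pattern was marked by Ces5a, a carboxylesterase secreted by the epididymis. It was 210.9 CPM in DO379, 131.7 in DO392 and 95.2 in DO545, and at most 4.58 in all other libraries with Ddx3y counts and 0.286 in those without. In the 9 libraries other than DO379 it was 1.06 to 4.58 CPM, above the low group's highest, 0.27 (log2 fold change 8.39 ± 0.32, and 5.56 without DO379). Among the 50 libraries with over 30 CPM of Spink8, DO379, DO392 and DO545 were also the only ones with little Akr1b7 (2.92, 44.9 and 4.71 CPM) and little Ptgs2 (3.33, 11 and 3.64 CPM). The other 47 had 782.2 to 10593 CPM of Akr1b7, 138.4 to 1927 of Ptgs2, 0.128 to 4.58 of Ces5a and at most 0.528 of Rnase10.

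DO392 and DO545 differed from DO379 in further genes, all chosen after their values were seen. Pate2, a secreted protein of the Ly6 family, was 31.4 and 19.4 CPM in DO392 and DO545 and 0.317 in DO379, and Ltf, lactoferrin, was 48.2 and 22.6 against 0.158. Pate2 did not exceed 0.67 CPM in the libraries without Ddx3y, but Ltf reached 216.2 CPM there. Cd52 was 82.1 and 103.7 CPM in them and 20.2 in DO379. Actg2 was low in them, at 8.53 and 11.1 CPM, as was Rnase10, at 2.92 and 0.123, while Defb42 was 3.56 and 4.34. Prom2, a prominin of epithelial membranes (129.2, 89.1 and 329.1 CPM in DO392, DO545 and DO379), and Cuzd1, a secreted zona pellucida-like protein (289.8, 244.8 and 762.4 CPM), were high in all 3. The highest levels elsewhere were 157.8 CPM of Prom2 and 100.2 of Cuzd1.

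**Figure D5:**
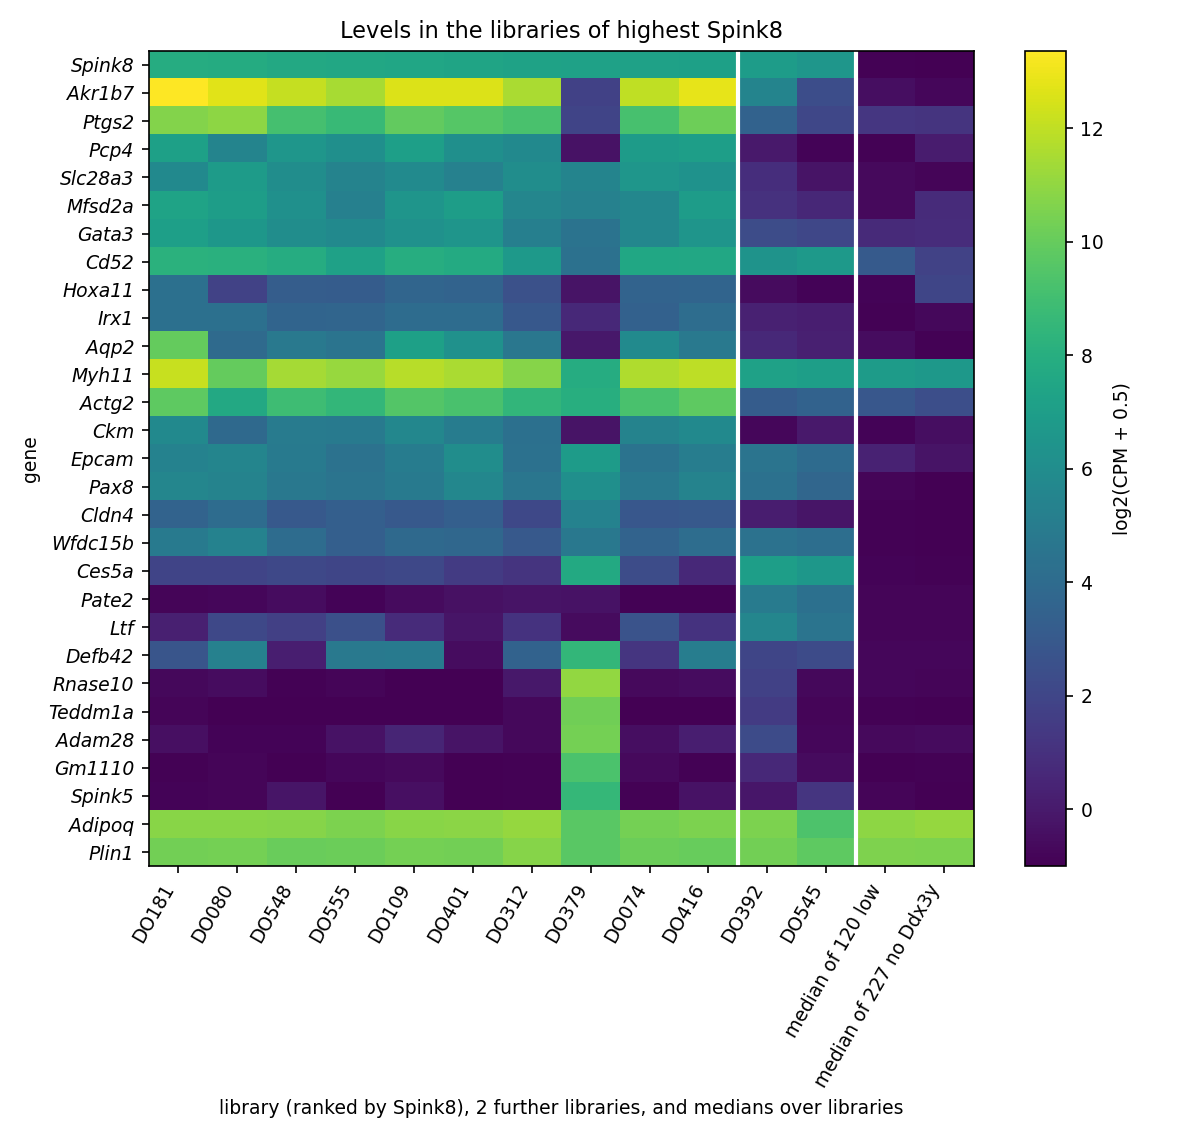
Levels, as log2(CPM + 0.5), of 29 genes (rows) in the 10 libraries of highest Spink8, in DO392 and DO545, and as medians over the 120 libraries of the low group and the libraries without Ddx3y counts (columns). Akr1b7 and Ptgs2 are high in the 10 other than DO379, Actg2 is high in all 10, Rnase10, Teddm1a and Adam28 are highest in DO379, and Pate2 and Ltf are highest in DO392 and DO545.

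Libraries ranked 11 to 20 by Spink8, taken from the same ranking that chose the 10, were set against the same 120. There 2228 genes (10.2%) were higher and 903 (4.14%) lower. Of the 2862 higher genes of the 10 libraries, 1725 (60.3%) were among them, which is 77.4% of the second list, and of the 2121 lower genes 24.6% were, which is 57.8%. Both comparisons used the same ranking by Spink8 and the same low group. Genes that follow Spink8 are shared through this choice, so the overlap is a description and no independent check. In ranks 11 to 20 Akr1b7 was 44.9 to 5430 CPM (log2 fold change 12.28), Ptgs2 11 to 747.7 CPM (7.74) and Slc28a3 rose by 6.97, all with a smaller fold than in the 10. Smooth muscle held 8 of 9 members and epithelium 16 of 18 members higher in these ranks.

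Genes of adipocytes were lower in the 10 libraries by small amounts. Of 12 tested, 7 passed and all 7 were lower (6 without DO379, 5 in ranks 11 to 20), beside 9.69% of all genes, with a median log2 fold change of -0.47. Fabp4, the fatty acid carrier of fat cells, was 6056 to 9565 CPM (median 7855) against a low-group median of 9918, and Plin1, which coats lipid droplets, was 842.9 to 1751 (median 1208) against 1530. Their log2 fold changes were -0.48 ± 0.10 (adjusted p = 0.000118) and -0.47 ± 0.10 (adjusted p = 9.49e-05), with 10 and 9 of the 10 libraries below the median of the low group. Cidec, another droplet protein (-0.54), the lipases Lipe (-0.47) and Pnpla2 (-0.46), Pparg, the regulator of adipocyte identity (-0.48), and Lpl, lipoprotein lipase (-0.51), were lower by similar amounts. Adipoq, the adipokine adiponectin, was -0.42 (adjusted p = 0.0834), and Lep, leptin, -0.40 (0.496). The groups overlapped for every one of these genes. Since CPM is a share of the total, a rise of other transcripts and a fall of these cannot be told apart.

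Some enzymes of fatty acid synthesis and most listed genes of heat production were lower in the 10 libraries, and these calls were not made in ranks 11 to 20. Of 8 synthesis genes 3 were lower, beside 9.69% of all genes. They were Scd1, a desaturase (-0.51), Fasn, fatty acid synthase (-0.60), and Me1, malic enzyme (-0.67). In ranks 11 to 20, 0 of the 8 passed and 0 had an unadjusted p under 0.05. Of 8 thermogenesis genes, 6 were lower, also beside 9.69%, led by Ucp1, the uncoupling protein of brown fat (-2.20 ± 0.72, adjusted p = 0.0158), with Dio2, which activates thyroid hormone (-1.26), Cox8b (-0.93), a subunit of cytochrome oxidase, and the droplet protein Cidea (-0.93). Without DO379 the count was 3, beside 7.17%, and in ranks 11 to 20 it was 0, beside 4.14% (1 at an unadjusted p under 0.05), where Ucp1 had a log2 fold change of 0.29 (adjusted p = 0.807). Libraries without Ddx3y had a median of 429.95 CPM of Ucp1, against 3.89 in the low group and 1.58 in the 10.

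The lowest calls by fold were set by a few libraries of the low group. Gm13339 (-8.03), Gsdma3, a gasdermin (-6.58), Myh4 (-5.66), Gm10051 (-5.55) and Gm14269 (-5.04) had SE of 1.55 to 2.59, and their low-group medians were under 0.2 CPM while the highest of the 120 reached 5.37 to 737.5 CPM. After them, beside Ucp1 and Dio2, came Amph, an endocytic adaptor (-2.18), Arc, an activity-induced gene (-1.34), and Gm14150 (-1.30), with 7 to 9 of the 10 libraries below the low-group median. In ranks 11 to 20 the adjusted p of these 10 genes was 0.1 to 0.989.

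Among immune cells, B cell markers passed and macrophage markers did not. Of 5 B cell genes, 4 were higher, among them Cd79a (1.00) and Ms4a1 (1.04), parts of the B cell surface, beside 13.1% of all genes. Ms4a1 was 29.9 CPM in DO080, 26.4 in DO109 and 2.28 to 9.9 in the other 8, against a low-group median of 2.55 and a highest of 24.4, so the groups overlapped. Its call (adjusted p = 0.0408 in edgeR) was lost without DO080 (log2 fold change 0.69, adjusted p = 0.258), without DO109 (0.73, adjusted p = 0.238) and without DO312 (1.03, adjusted p = 0.0561). In ranks 11 to 20, 0 of the 5 passed and 0 had an unadjusted p under 0.05. Of 12 macrophage genes 0 passed, also in DESeq2, with 4 at an unadjusted p under 0.05. Of 8 liver genes 0 passed, also in DESeq2, with 2 at an unadjusted p under 0.05. Of 8 T cell genes 2 were higher, beside 13.1% of all genes. Without DO379 the count was 1, beside 10.7%, and in ranks 11 to 20 it was 0, beside 10.2%. Of 8 mesothelial genes 1 was higher, a share near the 13.1% of all genes, and this was Krt19, which is also an epithelial keratin. Alb, albumin, was 1.48 to 1175 CPM in the 10 libraries and up to 1682 in the low group (log2 fold change 1.26, adjusted p = 0.196).

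Of 3 tested seminal vesicle and prostate genes 1 was higher, beside 13.1% of all genes, and in ranks 11 to 20 all 3 were, beside 10.2%. In the 10 libraries this was Ceacam10, secreted by the seminal vesicle, at 2.31 to 94.1 CPM, with 8 of 10 above the low group's 7.35 (log2 fold change 5.72 ± 0.52). Against all other libraries with Ddx3y counts its log2 fold change turned to -2.05 (adjusted p = 0.505 in edgeR). Tgm4, the prostate transglutaminase, was at most 0.751 CPM in the 10 (0.17, adjusted p = 0.745 in edgeR). In ranks 11 to 20 single libraries stood out: DO283 had 15945 CPM of Ceacam10 and 1166 of Tgm4, and DO533 had 83.9 and 36.2. The other libraries of these ranks had at most 26.9 CPM of Ceacam10 and 0.346 of Tgm4. Of 3 tested sperm genes 1 was higher, and of 7 tested genes of Leydig and Sertoli cells 2 were higher, both beside the same 13.1%. The part of these tissues in the Spink8 pattern was not tested.

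Of 71 tested potassium channel genes, a family taken by symbol after values were seen, 42 were higher and 0 lower, beside 13.1% and 9.69% of all genes, and 34 were higher without DO379, beside 10.7%. Among other transport genes, picked after their values were seen, Fxyd4, a regulator of the sodium pump, rose by 6.95, with 9.1 to 30.2 CPM in the 9 libraries and 0.353 in DO379. Abcg2, a transporter of urate and drugs, rose by 3.0, with 184.7 to 453.2 CPM in the 9, 40.2 in DO379 and at most 43.4 in the low group. For Fxyd4 and Abcg2, as for Akr1b7 and Ptgs2, DO379 lay in the range of the low group, and so it did for Kcnj16 of the same pick. For the other genes of the pick, Trpv6, Slc13a2 and Kcnn2, DO379 lay above every library of the low group, as the 9 libraries did.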

How the data were processed

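Whole gonadal fat was profiled by sequencing of polyadenylated RNA, with 1 library per mouse. The authors deposited estimated counts of 23180 genes, made with EMASE and GBRS by aligning read ends to a transcriptome of the founder strains and dividing shared reads by expectation maximisation, so that genes with near-identical copies are uncertain. Transcripts under 1 read in at least 0.5 of the samples had been removed by the authors. They also deposited a table of log2-scale values after the variance-stabilising transformation of DESeq2, which was used as an alternative. The submitters' processing notes name GRCm38 and DESeq2, and 99.2% of genes had the same start and end in GENCODE M21.

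Of the deposited counts 66.8% were whole (within 1e-06), and the others were rounded for the tests. CPM is the count over the library total times 1000000. Libraries with any Ddx3y count were ranked by Spink8 CPM, and the highest 10 were compared with those below the median by edgeR 4.0.16 (TMM, robust quasi-likelihood fit, R 4.3.3) over genes with at least 10 counts in at least 10 libraries. Spink8 was left out of the tests, and p-values were adjusted over all tested genes by Benjamini-Hochberg at 0.05. Errors are SE of the log2 fold change. Total counts ran from 35.3 to 137.8 M (median 82.0 M), and floors at 3 counts cover counting error only.

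The members and the 29 gene lists were chosen with earlier results of these data known. A member of these lists is not reported here. Named genes were the 20 of largest rise, the 10 of largest fall (mean of at least 1 CPM in the group where it was higher), the 10 most like Spink8 and the 10 most like Adam28, and the 4 members of each list with the highest mean CPM. Other list members named, and the genes said in the text to be so, were chosen after their values were seen. Likeness is Pearson's r of log2(CPM + 0.5). Scripts were tested on simulated counts. Alternatives were DESeq2 1.42.0 and its size factors, limma 3.58.1 on the transformed values, other filters, other cuts of the ranking, other reference groups, label numbers as covariates and each library left out. Promoters are RefSeq windows of GRCm38.p6, read up to the annotated gene start.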

Additional observations from a re-analysis of the deposited data

Results flagged for a closer look

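Among the 10 libraries of highest Spink8, DO379 stood apart from the other 9 in Rnase10, Teddm1a and Adam28. The gap from DO379 to its nearest neighbour took 0.923 of the range of Rnase10, 0.97 of that of Teddm1a and 0.879 of that of Adam28, on the scale of log2(CPM + 0.5), each above the 95% critical value of Dixon's test for 10 values. Chance alone passes this value in about 1 of 20 groups, and the genes were measured in the same library, so the 3 results are not independent. For the total count the widest gap at either end was that of another library, DO080, and took 0.183 of the range, below the critical value. For Spink8 it was that of DO416, at 0.0384 of the range. Spink8 chose the libraries and the cut set its low end, so this value is a description and no test.

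Rnase10 exceeded every library without Ddx3y in several libraries that were in neither group compared. It was 157.8 CPM in DO194, 27.4 in DO380, 5.76 in DO397, 4.74 in DO319, 4.29 in DO216 and 1.1 in DO172, against at most 0.79 CPM without Ddx3y. Ces5a was 95.2 CPM in DO545, also in neither group, against at most 0.286 CPM without Ddx3y. DO392, which entered the comparison of ranks 11 to 20, had 2.92 CPM of Rnase10 and 131.7 of Ces5a.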

How the results depend on the processing

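Over the genes named in the text and all settings, 2281 values (89.8%) kept their direction and their side of the threshold. With the direction kept, 8.19% lost and 0.275% gained the call. A further 36 changed sign with a call in the main fit or the alternative, and 9 changed sign with a call in neither. The 13.1% of genes higher and 9.69% lower became 7.21% and 2.38% with the 5 highest libraries, 21.8% and 18% against the libraries without Ddx3y, and 10.2% and 4.14% in ranks 11 to 20, a setting chosen after seeing the data. Leaving out each library in turn gave 10.7% to 13.2% higher and 7.17% to 10.2% lower genes, with the lowest shares without DO379, and 0.557% to 1.18% of genes with separate groups. Higher calls were 57.4% of all calls, 63.4% with DESeq2's size factors and 64% on the transformed values. Of list genes, 20 were lower, against 13 on the transformed values, 4 with the 5 highest and 13 against all other libraries. The count was 42 against those without Ddx3y, 10 when ranked by TMM-scaled CPM and 9 in ranks 11 to 20. With a library left out it was 12 to 20. Over all genes the share lower also changed, from 9.69% to 2.38% with the 5 highest, 18% against those without Ddx3y and 4.14% in ranks 11 to 20. The counts therefore do not show a change of the lists apart from that of all genes. The difference in total count was 2.59 M for the 5 highest and 0.325 M against all others. The overlaps of the 10 highest libraries with those of Rnase10, Teddm1a and Adam28 were 0, 0 and 1 with TMM, and rank correlation kept 5 of the genes most like Spink8. Without DO379, log2 fold changes turned to -0.86 for Teddm1a, -0.59 for Teddm1b, -0.38 for Ptgds and -0.20 for Adgrg2, while with another library left out they reached 11.41, 8.10, 2.00 and 1.51. With DESeq2, which replaces counts far from the rest, they were -0.01 for Rnase10, -0.91 for Teddm1a, -0.01 for Spink5, -0.55 for Teddm1b and -0.00 for Lcn2. The 5 highest, which leave DO379 out, gave -0.69 for Rnase10, -1.42 for Teddm1a, -0.47 for Teddm1b, -0.13 for Teddm2, -0.84 for Lcn2, -1.21 for Ptgds and -0.92 for Adgrg2, and the TMM ranking, which does so too, -0.10 for Rnase10, -0.56 for Teddm1a, -0.00 for Spink5, -0.67 for Teddm1b and -0.05 for Ptgds. The 20 highest gave 0.15 for Gm13339 and 0.18 for Gm10051. Ranks 11 to 20 gave -0.03 for Teddm1b, 1.14 for Gm13339, 0.92 for Gsdma3, 1.16 for Gm10051, 0.29 for Ucp1, 0.02 for Amph, 0.22 for Dio2, 0.16 for Cox8b, -0.21 for Ms4a1 and -0.12 for Cd79a. Against all others Ceacam10 was -2.05, and against the libraries without Ddx3y Ptger2 was 0.11 and Hoxa10 -0.39. The cause of these changes was not tested. Depth limits values near 0.0826 CPM, which is 3 counts in the shallowest library of the low group. No paired analysis was possible because each mouse gave 1 library and the replicate numbers only name the mice.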

Other observations

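Single libraries outside the 10 carried genes of the accessory glands. DO283, of rank 18 by Spink8, had 15945 CPM of Ceacam10, a secreted protein of the seminal vesicle, and 1166 CPM of Tgm4, the prostate transglutaminase, with 1325 CPM of Cd52, 117.8 of Spink8 and 1610 of Akr1b7. DO288 had 608.8 CPM of Ceacam10 and 45.3 of Tgm4, and DO533 had 83.9 and 36.2. The 10 libraries of highest Spink8 reached 94.1 CPM of Ceacam10 and 0.751 of Tgm4.

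Low levels of Akr1b7 and Rnase10 were uneven along the mouse numbers. Rnase10 was 2072 CPM in DO379, 27.4 in DO380, 0.938 in DO381 and 0.37 in DO382, and 0.0255 in DO378, and it was 157.8 in DO194 and 0.723 in DO195. Of libraries whose number followed that of a library with over 100 CPM of Akr1b7, and which had at most 100 CPM themselves, 35 of 42 (83.3%) exceeded 1 CPM, with a median of 8.62. Of those whose number came just before, 15 of 42 (35.7%) did, and of libraries with no such library within 3 numbers, 7.28% did (median 0.105). Most libraries behind the 7.28% had no Ddx3y counts, while nearly all of those just after or just before had them. The 7.28% is therefore no matched reference, and the share among its libraries with Ddx3y counts was not tested. Where only a single library with over 100 CPM was near, the shares were 12 of 16 (75%) just after and 1 of 16 (6.25%) just before. By library number the shares were 26.7% just after and 20.8% just before. This order was noticed in the data, no test was made of it, and its cause was not tested.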
